A study of Mus musculus with 12 samples.

Results

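The extracellular matrix of mouse skeletal muscle was followed through 40 genes. They encode fibrillar and other collagens, basement membrane proteins, small proteoglycans, adhesive and matricellular proteins, elastic fibre and cross-linking proteins, matrix proteases with their inhibitors, and a growth factor receptor of fibroblasts. The members were taken by gene symbol from the array annotation. A probe was named for 37 of the 40 genes, with 81 probes in all, and 35 genes had a probe that was detected well enough to be tested, out of 9131 genes tested on the arrays. No probe was named here for Col6a3, Col12a1 and Fbn1, and the probes of Postn and Thbs1 were detected on 0 of the 12 arrays.

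The transgenic (TG) mice overexpress Nur77 in skeletal muscle. Nur77 is an orphan nuclear receptor and transcription factor encoded by Nr4a1. The wild-type (WT) mice are labelled by that genotype alone. All 12 mice, 6 TG and 6 WT, had been fasted overnight. Muscle RNA of 2 mice was combined into each pool, which gave the pools TG1, TG2 and TG3 and the pools WT1, WT2 and WT3. The sample titles give the muscle as Gastr, read here as gastrocnemius. Each pool was hybridised to an Illumina mouse BeadChip array on chip 1 and again on chip 2. Each genotype thus has n = 3 pools as its replicates, with a pair of arrays that repeat the measurement of 1 RNA. The sources used here give neither the promoter that drives the transgene nor the strain, age or sex of the mice. The question addressed is which matrix genes differ in muscle that carries extra Nur77.

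Around each muscle fibre lies a basement membrane, a thin sheet of type IV collagen and laminin joined by nidogen and heparan sulfate proteoglycans. Outside it, fibrillar collagens of types I, III and V carry tensile load, type VI collagen links the fibrils to the basement membrane, and small proteoglycans such as decorin and lumican regulate fibril diameter. Much of this matrix is made by fibroblasts and fibro-adipogenic progenitors between the fibres, while type IV collagen also comes from endothelial cells, pericytes and the fibres themselves. In whole muscle RNA, fewer cells of a type and less RNA per cell cannot be told apart.

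The arrays detected 17607 to 19118 of 45281 probes each. The 15 tested markers of skeletal muscle fibres summed to signals of 531902 to 604580 on the TG arrays and 441077 to 536795 on the WT arrays, which matches the labelled tissue. The Nr4a1 probe was detected on 0 of 12 arrays, with signals from -16.2 to 8.2 in TG and from -11.3 to 3.0 in WT, so it checks none of the labels. Myh8, the perinatal myosin heavy chain, separated the genotypes on every array, at 3217 to 30190 in TG against 46.7 to 184.3 in WT.

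The 2 arrays of pool WT1 disagreed on the matrix genes. With each level set against the mean of the 3 WT pools, the median of the 35 genes was -0.40 (log2) on the chip 1 array of WT1 and 0.41 on its chip 2 array. The chip 2 array of WT1 was the highest of the 6 WT arrays for 27 of the 35 genes, and its chip 1 array was the lowest for 21. The gap reached at least 2-fold for 13 genes (37.1%), against 1.95% of all genes tested. In the other 5 pools, 1 matrix gene in 1 pool differed by 2-fold or more between the arrays, which was Col3a1 in TG3. Pool TG3 also stood apart: its median was 0.90 above the mean of the WT pools, against 0.11 in TG1 and 0.18 in TG2, and it was the highest of the 6 pools for 34 of the 35 genes (97.1%), against 24.2% of all genes tested. On the chip 2 array of WT1, Myh8 had a signal of 85.0, within the range of the other WT arrays. The results are therefore given with and without these pools.

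**Figure D1:**
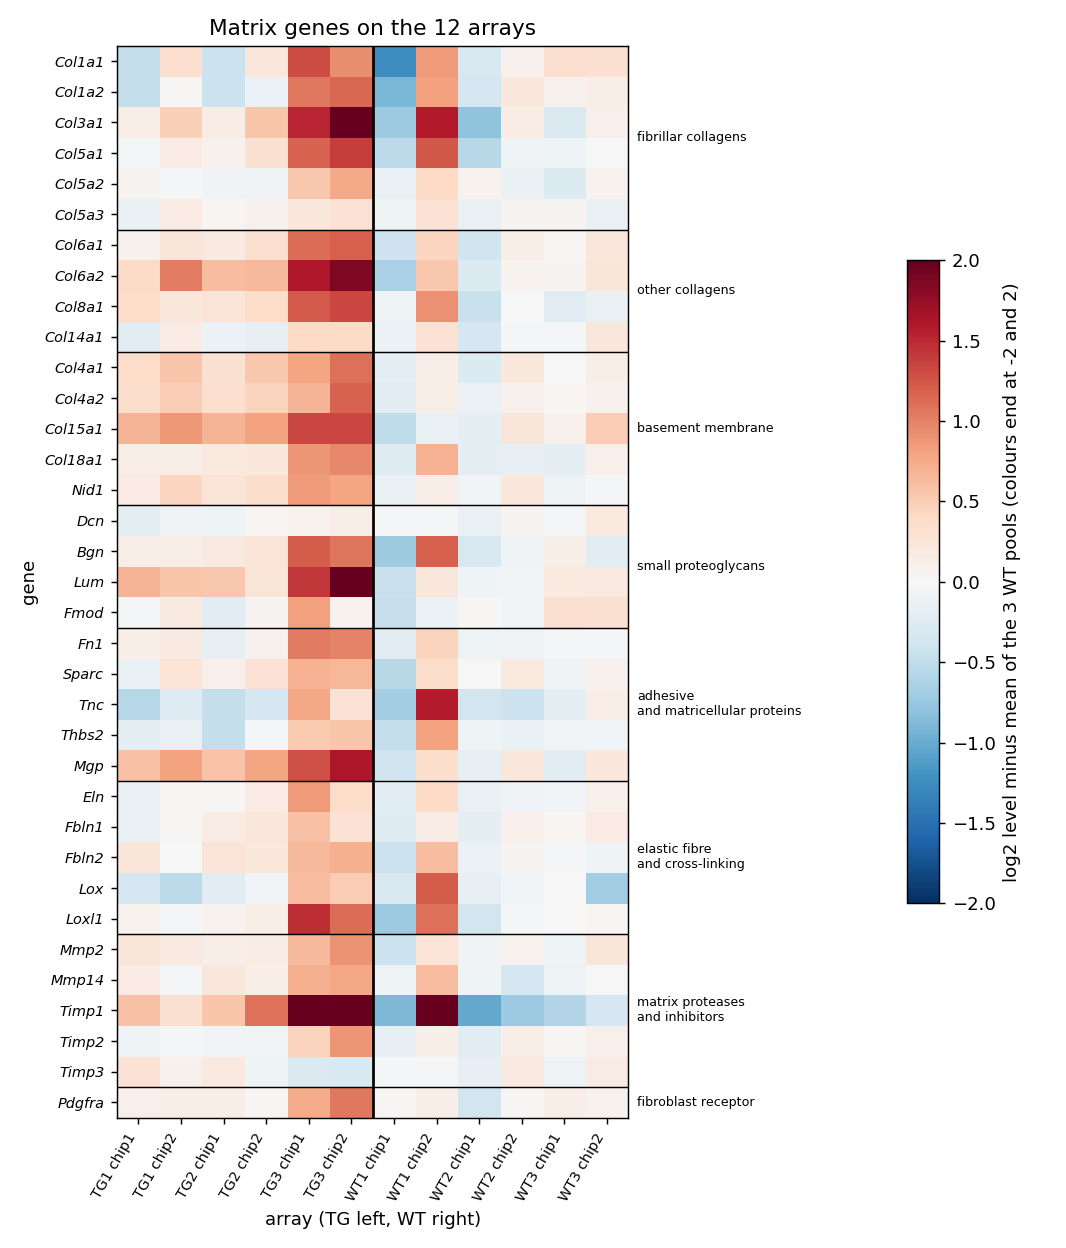
Each row is a matrix gene and each column an array, with the 6 TG arrays left of the black line and the 6 WT arrays right of it; the colour is the log2 level minus the mean of the 3 WT pools. The arrays of TG3 and the chip 2 array of WT1 are mostly red, with medians of 0.81, 0.93 and 0.41, and the chip 1 array of WT1 is mostly blue, with a median of -0.40.

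Over the 3 TG and 3 WT pools, 6 of the 35 matrix genes rose in TG (17.1%): Col4a1, Col4a2, Col15a1, Nid1, Col6a2 and Mgp. None fell. Of all 9131 genes, 28.0% were called, 12.1% higher and 15.9% lower, by the same test (limma, Benjamini-Hochberg adjusted p below 0.05), and of the 15708 probes tested 25.8% were called. The share of matrix genes called higher was thus near that of all genes. With 75th percentile scaling in place of quantile normalisation, 5 matrix genes were called higher and the share of probe calls that were higher was 33.5%, against 43.6%. The differences were positive for 31 of the 35 genes, against 4350 of the 9131 genes tested. Their median was 0.36 on the log2 scale, against -0.02 over all genes tested. The 3 TG pools lay above the 3 WT pools for 10 genes (28.6%), against 20.6% of all genes, and below them for 0, against 27.0%. With so few pools, the smallest p that exact permutation can give is 0.1. Any gene whose pools do not overlap has that value, so it adds no test for the 10 genes. Taking the arrays singly, all 6 TG arrays lay above all 6 WT arrays for 5 genes (14.3%), against 8.26% of all genes: Col4a1, Col4a2, Col15a1, Lum and Mgp.

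Leaving out TG3 and both arrays of WT1 lowered the median difference to 0.14 and raised the number of genes called higher to 13 (37.1%), against 16.3% of all genes. These were the same 6 genes with Col3a1, Col5a1, Col8a1, Col18a1, Bgn, Lum and Timp1 added. Col1a2 was called lower there, against 16.6% of all genes called lower. Col1a1, Col1a2, Col14a1, Fmod, Thbs2 and Timp2 were positive over the 6 pools and negative there, while Timp3 turned from negative to positive. The comparison without WT1 and TG3 keeps 2 pools per genotype and was chosen after seeing the data. The pools left out were those that stood apart on these same genes. A smaller standard error or adjusted p there, for any gene below, may follow from that choice and is given as a description. Leaving out TG3 alone called 7 genes (20.0%, against 14.1% of all genes), and leaving out WT1 alone called 2, Col15a1 and Mgp (5.71%, against 7.83%). The chip 1 arrays alone called 14 genes higher (40.0%, against 11.2%). Taking WT1 from chip 1 only called 10 genes higher (28.6%, against 13.6%), and with TG3 also left out 12 (34.3%, against 15.6%). That chip 1 array was itself the lowest WT array for most of the genes.

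**Figure D2:**
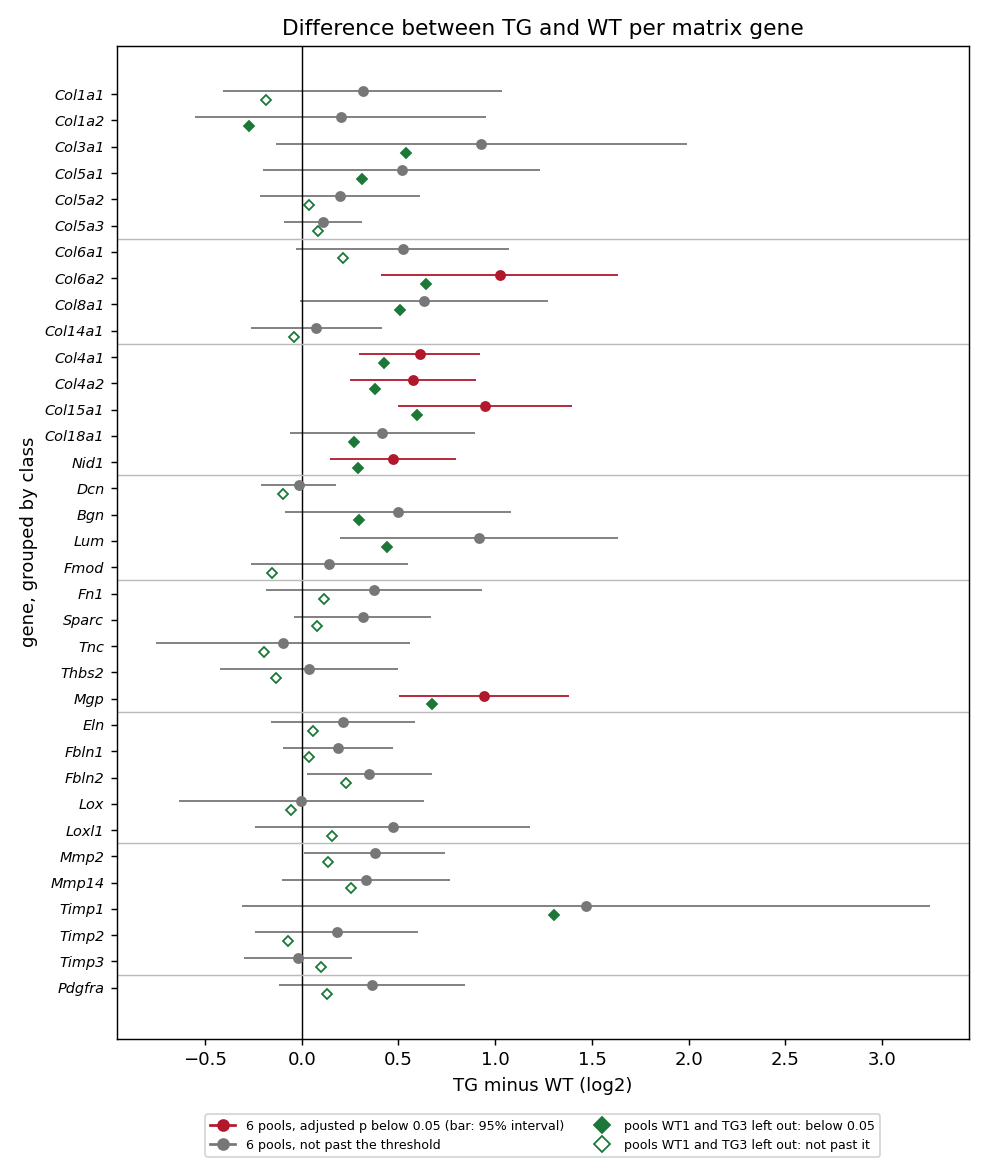
TG minus WT differences (log2, x axis) of the 35 matrix genes, grouped by class. Circles with 95% intervals are from the 6 pools, red where the adjusted p was below 0.05 (6 genes), and green diamonds are the differences without pools WT1 and TG3, filled where called (14 genes); the diamonds of the 6 called genes all lie nearer to 0 than their circles.

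The basement membrane genes held most of the calls. Of 5 genes in this class, 4 rose, against 12.1% of all genes, and the median difference was 0.58 (log2). All 5 were called higher without WT1 and TG3, against 16.3% of all genes, with a median of 0.38. Each class and list below is described by its count and median without a test of it. Their counts stand against 12.1% of all genes higher and 15.9% lower, or 16.3% and 16.6% without WT1 and TG3.

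Col15a1 encodes type XV collagen, a basement membrane collagen that anchors muscle fibres and capillaries to the matrix around them. Its deposited signals were 303.9 in TG1, 298.1 in TG2 and 506.5 in TG3, against 126.9 in WT1, 171.5 in WT2 and 214.4 in WT3. All 6 TG arrays lay above all 6 WT arrays, and TG1 and TG2 were close to each other. The difference was 0.95 ± 0.19 (log2 ± SE, adjusted p = 0.0111), a 1.93-fold rise. It was called in all 20 alternatives, among them chip 2 alone, where it was the 1 matrix gene called (2.86%, against 4.9% of all genes).

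Col4a1 and Col4a2 encode the α1 and α2 chains that assemble into the common type IV collagen network. Col4a1 had signals of 4350, 4251 and 6210 in TG1, TG2 and TG3, against 3310, 3307 and 3459 in WT1, WT2 and WT3. The WT pools were nearly equal as averages, while single WT arrays ran from 2740 to 3875, both in WT2. Every TG pool was above every WT pool, and every TG array above every WT array. The difference was 0.61 ± 0.14 (adjusted p = 0.0149), or 1.53-fold. Col4a2 followed with 2588, 2503 and 3797 in the TG pools, against 2045, 2036 and 2131 in the WT pools, again with no overlap between any TG and any WT array. Its difference was 0.58 ± 0.14 (adjusted p = 0.0212), or 1.49-fold. Col4a1 passed in 17 of 20 alternatives, losing its call on chip 2 alone (0.57, adjusted p = 0.0596) and without WT1 or WT2. Col4a2 passed in 16, losing its call on chip 2 alone (0.60, adjusted p = 0.0851) and without any 1 of the WT pools.

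The 2 genes lie head to head, and their promoter windows are shown because the genes moved together, a choice made after their values were seen. In RefSeq (GRCm38.p6), windows of 250 bases before to 50 bases after the annotated start were held for 24 of the 35 tested members (28 windows). The annotated starts of Col4a1 and Col4a2 used for these windows are 21 bases apart on opposite strands. The annotated Col4a1 gene reaches further out, to 11312889, past the start used here. The windows share 78 bases, printed in capitals on the strand of each gene. Each stretch of capitals is the reverse complement of the other. The windows of Col15a1 and Col6a2 are shown because these genes had the largest called differences among the collagens, and capitals in Col6a2 mark the letters GGGCGG (GC box) read on either strand. The Col15a1 window holds none of the motifs searched and has no capitals. It surrounds an annotated start at 47208012, inside a gene that begins at 47207655. It therefore does not cover the bases before that outer start, and the absence of motifs does not extend to them. The table holds a second Col6a2 window, at another annotated start, with 1 GC box; the window listed first, with 3, is shown.
Col4a1, chr8:11312777-11313076, minus strand: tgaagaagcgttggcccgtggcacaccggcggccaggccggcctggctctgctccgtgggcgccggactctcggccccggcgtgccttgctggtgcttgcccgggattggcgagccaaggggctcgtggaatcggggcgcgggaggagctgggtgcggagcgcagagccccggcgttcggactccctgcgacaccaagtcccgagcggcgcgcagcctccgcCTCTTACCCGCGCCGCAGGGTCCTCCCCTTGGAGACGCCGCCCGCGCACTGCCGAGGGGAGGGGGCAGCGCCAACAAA
Col4a2, chr8:11312555-11312854, plus strand: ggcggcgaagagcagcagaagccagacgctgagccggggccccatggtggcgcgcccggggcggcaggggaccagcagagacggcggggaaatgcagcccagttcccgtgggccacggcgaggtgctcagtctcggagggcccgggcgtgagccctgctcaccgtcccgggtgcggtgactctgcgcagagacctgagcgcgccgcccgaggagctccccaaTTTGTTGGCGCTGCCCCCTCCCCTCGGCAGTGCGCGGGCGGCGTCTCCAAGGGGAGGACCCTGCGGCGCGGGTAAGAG
Col15a1, chr4:47207762-47208061, plus strand: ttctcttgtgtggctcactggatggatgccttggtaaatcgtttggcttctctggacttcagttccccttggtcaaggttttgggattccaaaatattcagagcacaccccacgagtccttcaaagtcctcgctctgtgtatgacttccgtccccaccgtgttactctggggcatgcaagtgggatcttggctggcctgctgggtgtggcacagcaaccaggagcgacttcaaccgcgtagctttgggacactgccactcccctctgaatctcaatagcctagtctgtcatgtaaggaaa
Col6a2, chr10:76623355-76623654, minus strand: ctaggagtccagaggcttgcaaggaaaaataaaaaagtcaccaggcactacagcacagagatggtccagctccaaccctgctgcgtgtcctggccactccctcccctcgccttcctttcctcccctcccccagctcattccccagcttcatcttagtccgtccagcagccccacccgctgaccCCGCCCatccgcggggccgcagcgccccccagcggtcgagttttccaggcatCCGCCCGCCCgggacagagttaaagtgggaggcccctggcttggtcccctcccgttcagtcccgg

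The motifs were searched on both strands. The NBRE, AAAGGTCA, to which Nur77 is known to bind as a monomer, was in 0 of the 28 windows of the matrix genes and in 1.51% of the 32851 windows of all genes. CCAAT was in 11 of the 28 windows and in 37.4% of all. The GC box was in 19 of the 28 windows and in 35.7% of all. A match describes these letters in these windows and no match says only that the letters are not there. GC content was 74.0% in the Col4a1 window, 73.7% in the Col4a2 window, 64.3% in the Col6a2 window shown (56.7% in the other) and 52.3% in the Col15a1 window.

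Nid1 encodes nidogen-1, which ties the type IV collagen network to laminin. Its signals were 621.3, 631.2 and 970.1 in TG1, TG2 and TG3, against 566.2, 582.5 and 509.2 in WT1, WT2 and WT3. The pools did not overlap, but TG1 and TG2 were little above WT2, and single arrays overlapped. The difference was 0.47 ± 0.14 (adjusted p = 0.0419), or 1.39-fold, and it passed in 12 of 20 alternatives. A second, dimmer Nid1 probe differed by 0.02 ± 0.09 (adjusted p = 0.912). Col18a1, type XVIII collagen and the precursor of endostatin, had 339.0, 365.4 and 673.6 in the TG pools, against 449.7, 286.7 and 322.6 in the WT pools. WT1 overlapped the TG pools through its chip 2 array (624.7, against 274.7 on chip 1), and the difference of 0.42 ± 0.21 did not pass (adjusted p = 0.174). Leaving out WT1 and TG3 gave 0.27 (adjusted p = 0.0375).

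**Figure D3:**
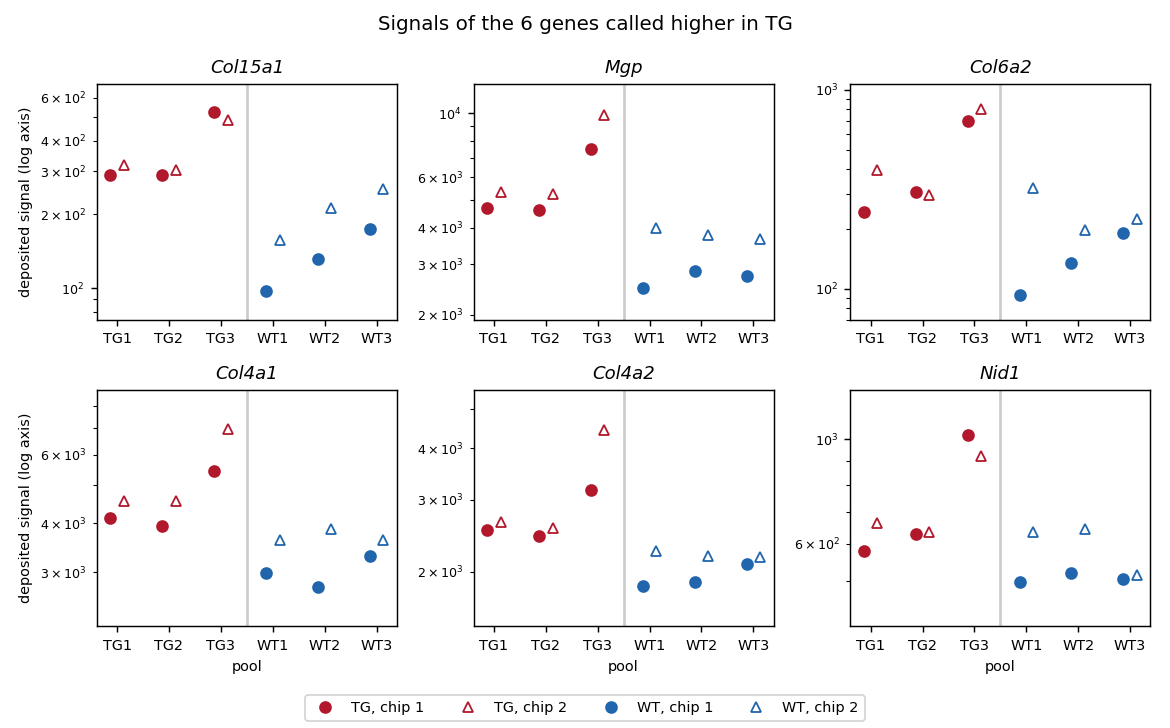
Deposited signal (log axis) of the 6 genes called higher in TG, for TG1, TG2 and TG3 (red, left) and WT1, WT2 and WT3 (blue, right), with chip 1 as filled circles and chip 2 as open triangles. TG3 is the highest pool in every panel, and for Col15a1, Col4a1, Col4a2 and Mgp all 6 TG arrays lie above all 6 WT arrays.

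Among the other collagens, 1 of 4 tested genes rose. Col6a2 encodes the α2 chain of type VI collagen, whose loss causes congenital muscular dystrophy in humans. Its signals were 319.3, 300.9 and 751.7 in TG1, TG2 and TG3, against 207.7, 166.5 and 208.0 in WT1, WT2 and WT3. The pools did not overlap, but single arrays did. The WT1 arrays had 93.4 on chip 1 and 322.0 on chip 2, and the latter was above the chip 1 array of TG1 (244.2), also on the normalised scale. The difference was 1.02 ± 0.27 (adjusted p = 0.0263), or 2.03-fold, and 0.64 ± 0.10 without WT1 and TG3. It passed in 16 of 20 alternatives, losing its call on chip 2 alone (adjusted p = 0.0882), without WT1 (adjusted p = 0.0814), and without WT2 or WT3. Its partner chain Col6a1 had 2145, 2291 and 4394 in the TG pools, against 2218, 1893 and 2222 in the WT pools. These overlap as signals but not on the normalised log2 scale, where TG1 was 11.17 and WT3 11.13. The Col6a1 difference of 0.52 ± 0.24 did not pass (adjusted p = 0.144).

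Col8a1, a short-chain collagen of vessels, had 171.6, 177.4 and 429.0 in the TG pools, against 237.3, 109.5 and 111.2 in the WT pools. TG1 and TG2 lay between WT1 and the other WT pools, and the difference of 0.63 ± 0.28 did not pass (adjusted p = 0.131). It was 0.51 ± 0.08 with WT1 and TG3 left out (adjusted p = 0.00128). Col14a1, a collagen that binds fibril surfaces, differed by 0.07 ± 0.15.

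None of the 6 fibrillar collagen genes passed, and all 6 differences were positive, from 0.11 to 0.93, with a median of 0.26. TG3 was the highest pool for each of them. Col3a1, the chain of type III collagen, had 416.1, 437.8 and 1889 in TG1, TG2 and TG3, against 726.5, 288.2 and 326.4 in WT1, WT2 and WT3, and its difference was 0.93 ± 0.46 (adjusted p = 0.173). The WT1 value joins a chip 1 signal of 189.8 and a chip 2 signal of 1263. The Col3a1 difference without WT1 and TG3 was 0.54 ± 0.09 (adjusted p = 0.00296).

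Col5a1, a chain of the type V collagen that nucleates fibrils, differed by 0.52 ± 0.31, with 549.7, 610.0 and 1402 in the TG pools, against 930.8, 452.6 and 544.8 in the WT pools. Col1a1 and Col1a2, the chains of type I collagen, differed by 0.31 ± 0.31 and 0.20 ± 0.33. Col1a2 had 459.2, 439.9 and 1286 in the TG pools, against 722.5, 582.4 and 638.3 in the WT pools, so that TG1 and TG2 lay below every WT pool and TG3 above. Without WT1 and TG3, Col1a2 was called lower at -0.27 (adjusted p = 0.0412), the opposite sign to the comparison of 6 pools. Col1a1 was -0.18 there and did not pass (adjusted p = 0.298). Col5a2 and Col5a3 were dim, at 17.2 to 81.4 and 26.5 to 53.7 over the 6 pools, and differed by 0.20 and 0.11, with Col5a2 detected on 6 of 6 TG arrays and 4 of 6 WT arrays. With the same pools left out, the median of the fibrillar class was 0.06.

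Of the small proteoglycans, none of 4 passed. Dcn, which encodes decorin and had the largest matrix signals, had 18770, 19756 and 21499 in TG1, TG2 and TG3, against 18478, 18927 and 20125 in WT1, WT2 and WT3. The groups overlapped throughout, and the difference was -0.02 ± 0.08 with a 95% interval of -0.21 to 0.18. Its 4 tested probes ranged from -0.25 to 0.20. Lum, lumican, had 432.1, 366.0 and 1103 in the TG pools, against 279.1, 266.5 and 329.5 in the WT pools, and all 6 TG arrays lay above the 6 WT arrays on the normalised scale. Its difference of 0.92 ± 0.31 fell short of the threshold (adjusted p = 0.064), and it was 0.44 ± 0.11 without WT1 and TG3 (adjusted p = 0.0165). A second Lum probe differed by 0.88 ± 0.33 (adjusted p = 0.0828).

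Bgn, biglycan, had 2205, 2360 and 4574 in the TG pools, against 3122, 1912 and 2087 in the WT pools. The difference was 0.50 ± 0.25 (adjusted p = 0.184), and the WT1 arrays gave 1347 on chip 1 and 4896 on chip 2. Fmod, fibromodulin, a proteoglycan typical of tendon, differed by 0.14 ± 0.18.

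Among the adhesive and matricellular proteins, Mgp rose and the other 4 tested genes did not pass. Mgp encodes matrix Gla protein, an inhibitor of soft tissue calcification made by vascular and stromal cells. Its signals were 5009, 4919 and 8672 in TG1, TG2 and TG3, against 3235, 3307 and 3188 in WT1, WT2 and WT3. The WT pools differed by little as averages, while the arrays of WT1 had 2473 on chip 1 and 3997 on chip 2. All TG arrays lay above all WT arrays, and TG1 and TG2 were close to each other. The difference was 0.94 ± 0.19 (adjusted p = 0.0105), or 1.92-fold, and it was 0.67 ± 0.07 without WT1 and TG3 (adjusted p = 0.000246). It passed in 19 of 20 alternatives, the exception being chip 2 alone (adjusted p = 0.0505).

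Sparc, a collagen-binding matricellular protein, had 4897, 5276 and 7653 in the TG pools, against 4752, 5248 and 4860 in the WT pools, a difference of 0.31 ± 0.15 (adjusted p = 0.166). A dimmer Sparc probe was called at 0.51 ± 0.13 (adjusted p = 0.0278), and with a gene counted where any tested probe passed, 7 of the 35 genes were higher (20.0%), against 13.4% of all genes by that rule. Fn1, fibronectin, differed by 0.37 ± 0.24, Thbs2, thrombospondin-2, by 0.04 ± 0.20, and Tnc, tenascin-C, by -0.10 ± 0.28. Tnc had 33.9, 34.9 and 142.8 in the TG pools, against 194.0, 35.7 and 65.4 in the WT pools.

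The elastic fibre and cross-linking genes gave 0 calls among 5 tested, with a median of 0.21. Loxl1 and Lox encode copper enzymes that cross-link elastin and collagen. Loxl1 had 1064, 1137 and 2794 in TG1, TG2 and TG3, against 1616, 999.0 and 1137 in WT1, WT2 and WT3, and differed by 0.47 ± 0.31 (adjusted p = 0.293). TG1 and TG2 lay within the range of WT2 and WT3 or close to it. Fbln2, fibulin-2, had 1100, 1204 and 1690 in the TG pools, against 1272, 1080 and 1036 in the WT pools. These overlap as signals but not on the normalised log2 scale, where TG1 was 10.26 and WT1 10.23. Fbln2 differed by 0.35 ± 0.14 (adjusted p = 0.103), while its second probe gave -0.09. Eln, elastin, differed by 0.21 ± 0.16, Fbln1, fibulin-1, by 0.19 ± 0.12, and Lox by 0.00 ± 0.28.

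Of the matrix proteases and inhibitors, 0 of 5 passed. Timp1, an inhibitor of matrix metalloproteinases that is induced in injured and inflamed tissue, had the widest spread of all 35 genes. Its chip 1 and chip 2 signals were 199.6 and 146.1 in TG1, 198.6 and 297.3 in TG2, and 2045 and 1133 in TG3. In WT they were 33.0 and 2232 in WT1, 22.5 and 44.2 in WT2, and 54.4 and 77.7 in WT3. The chip 2 array of WT1 was thus above every TG array, and the other 5 WT arrays were below every TG array. The difference over the 6 pools was 1.47 ± 0.77 (adjusted p = 0.195, 95% interval -0.31 to 3.25). Without WT1 and TG3, the pools picked for standing apart on these genes, it was 1.30 ± 0.15 (adjusted p = 0.000323). That was the largest of the 35 differences in that comparison. A second Timp1 probe gave 1.35 ± 0.72 over the 6 pools.

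Mmp2, the gelatinase that degrades type IV collagen, had 2316, 2187 and 3455 in the TG pools, against 2115, 2126 and 2219 in the WT pools. The pools did not overlap, yet TG2 was within the WT range on the signal scale, and the difference of 0.38 ± 0.16 did not pass (adjusted p = 0.116). Mmp14, the membrane-bound activator of Mmp2, differed by 0.33 ± 0.19. Timp2 differed by 0.18 ± 0.18. Timp3 was the gene in which TG3 was not the highest pool, at 4603, 4212 and 3270 in the TG pools, against 4163, 4337 and 4348 in the WT pools, and its difference was -0.02 ± 0.12.

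Pdgfra encodes the platelet-derived growth factor receptor that marks fibroblasts and fibro-adipogenic progenitors. It had 848.8, 831.9 and 1573 in TG1, TG2 and TG3, against 938.9, 760.6 and 910.6 in WT1, WT2 and WT3. On the signal scale TG1 and TG2 lay within the WT range, while on the normalised log2 scale TG1 (9.92) was just above WT3 (9.90). The difference of 0.36 ± 0.21 did not pass (adjusted p = 0.234). Its 2 arrays of WT1 were close, at 895.1 and 982.6, unlike those of Col3a1 or Timp1.

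The gap between the WT1 arrays was uneven over the matrix genes. Chip 2 over chip 1 was 22.5-fold for Timp1, 4.99-fold for Col3a1, 4.82-fold for Tnc and 4.29-fold for Col1a1. It was 1.28-fold for Col15a1, 1.26-fold for Col4a1 and for Col4a2, and 1.21-fold for Nid1, and it was 0.991-fold for Timp3 and 1.01-fold for Dcn. The 4 basement membrane genes that rose thus had small gaps among the 35, while Col18a1 of that class had 1.94-fold. The other called genes, Mgp and Col6a2, had wider gaps of 1.68-fold and 2.29-fold. Some genes not called also had small gaps, such as Pdgfra at 1.08-fold and Timp2 at 1.22-fold.

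**Figure D4:**
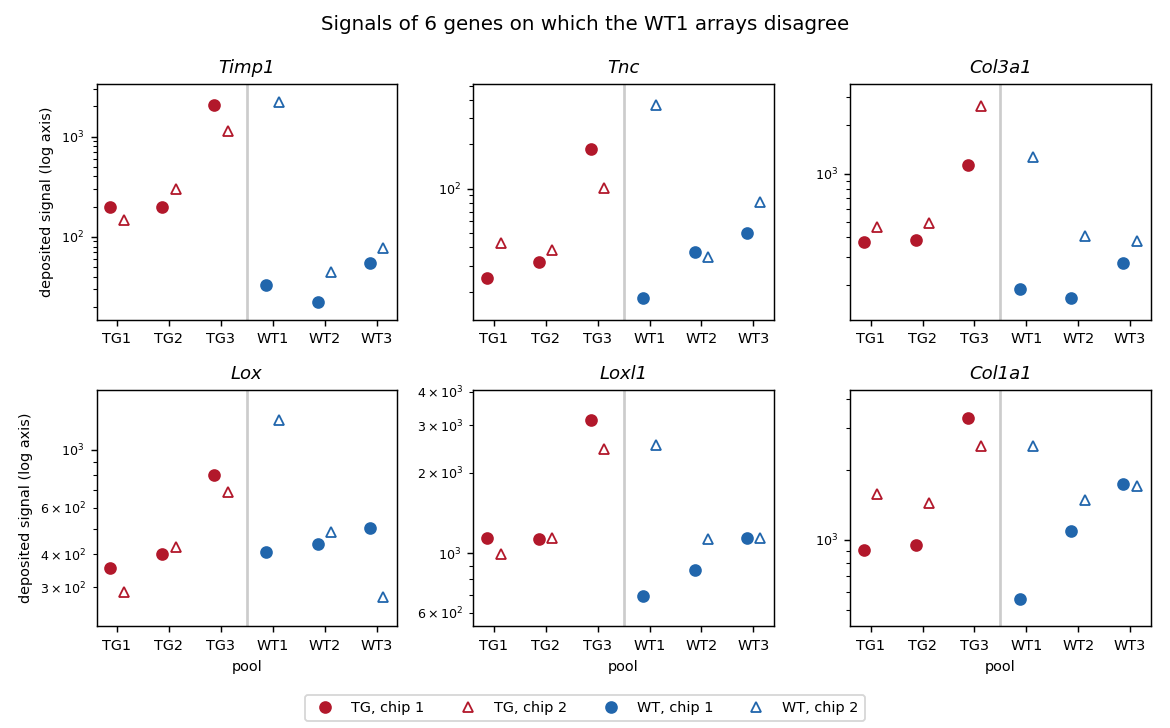
Deposited signal (log axis) of 6 matrix genes with wide gaps between the arrays of WT1, with TG pools in red at the left, WT pools in blue at the right, chip 1 as filled circles and chip 2 as open triangles. The chip 2 triangle of WT1 lies near or above the TG3 symbols while its chip 1 circle lies with the other WT arrays or below them, as for Timp1 at 2232 and 33.0.

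TG3 was the highest pool for 34 of the 35 genes. Its excess over TG1 and TG2 tended to be larger where the WT1 gap was wider. TG3 minus the mean of TG1 and TG2 was 2.51 for Timp1, 1.81 for Col3a1, 1.35 for Col1a2, 1.25 for Lum and 1.23 for Loxl1 on the log2 scale, against 0.50 for Col4a1 and -0.42 for Timp3. Lum and Pdgfra went against this pattern, since TG3 exceeded the other TG pools by 1.25 and 0.81 while their WT1 gaps were 1.58-fold and 1.08-fold. Tnc, Bgn and Lox had wide WT1 gaps of 4.82-fold, 3.73-fold and 2.85-fold with TG3 excesses of 0.93, 0.97 and 0.84. Fbln2 had 2.07-fold with 0.50. Across the 35 genes, the TG3 excess and the WT1 gap had a Pearson correlation of 0.854 and a Spearman correlation of 0.762. Over all 9131 genes these were 0.650 and 0.419. The 2 measures use no common array, but genes are not independent replicates, and the correlations are given as a description.

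**Figure D5:**
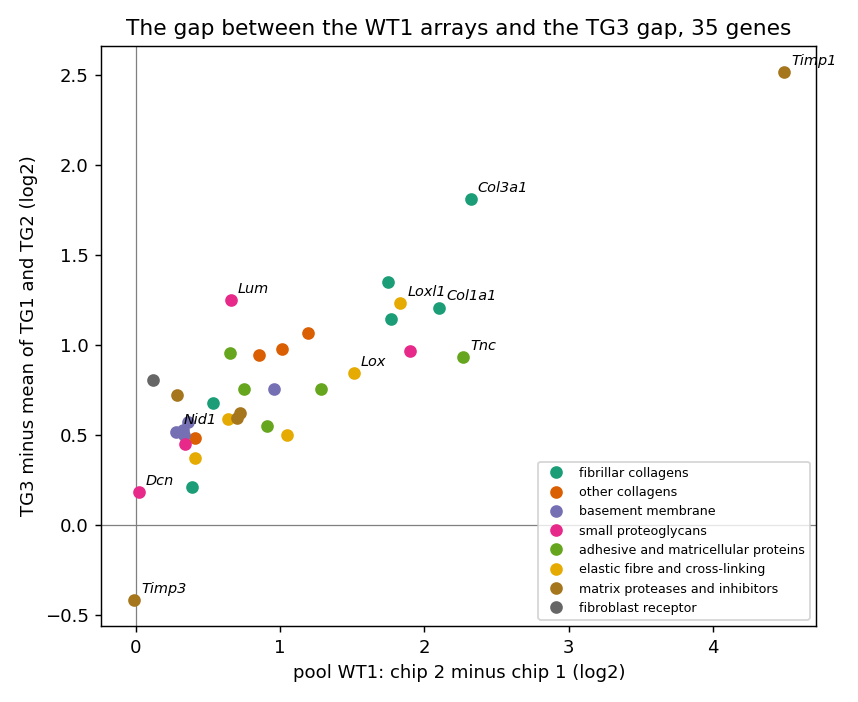
Each point is 1 of the 35 matrix genes, with chip 2 minus chip 1 in pool WT1 on the x axis and TG3 minus the mean of TG1 and TG2 on the y axis (both log2). Points run from Timp3 and Dcn at the lower left to Timp1 at the upper right (4.49 and 2.51), with the basement membrane genes mostly at small values of both.

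Markers of macrophages and leukocytes moved with the matrix genes on the same arrays. All 13 tested markers had positive differences, with a median of 0.64, and 0 passed (limma, Benjamini-Hochberg). Their summed signal ranged from 2343 to 13785 on TG arrays and from 998.7 to 10230 on WT arrays, and the highest WT value was the chip 2 array of WT1. The median over the WT mean was 0.14 in TG1, 0.19 in TG2 and 1.79 in TG3, and it was -0.48 on chip 1 and 1.45 on chip 2 of WT1. Lyz2, lysozyme of myeloid cells, differed by 1.40 ± 0.60 (adjusted p = 0.121), C1qb by 1.22 ± 0.61, C1qc by 1.03 ± 0.51 (both subunits of complement C1q) and Fcer1g, an Fc receptor chain, by 1.26 ± 0.63. The leukocyte genes Ptprc, Itgam and Cd3e were detected on 0 arrays. With WT1 and TG3 left out, 8 of the 13 were called higher, against 16.3% of all genes, with a median of 0.34. The part of these cells in the matrix differences was not tested.

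Fibroblast and fibro-adipogenic progenitor markers gave 2 rises among 12 tested, with a median of 0.29. Dpt, dermatopontin, rose by 0.63 ± 0.15 (adjusted p = 0.0197) and Pi16, a marker of progenitor-like fibroblasts, by 0.34 ± 0.09 (adjusted p = 0.032). Cd248 differed by 0.50 ± 0.17 (adjusted p = 0.0669) and Entpd2 by 0.30 ± 0.15. The summed signal was 4575 to 7800 on TG arrays and 3753 to 5429 on WT arrays, and the median without WT1 and TG3 was 0.10, with 1 call.

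Endothelial markers, from cells that also make type IV and type XV collagen, gave 3 rises among 12 tested, with a median of 0.22. Emcn, endomucin, rose by 0.30 ± 0.07, Eng, endoglin, by 0.31 ± 0.08 and Pecam1 by 0.35 ± 0.11, while Tek differed by 0.23 ± 0.08 (adjusted p = 0.0606). Their order over the pools was unlike that of the matrix genes: the median over the WT mean was 0.30 in TG1, 0.23 in TG2 and 0.07 in TG3, and it was 0.15 and -0.06 on the chip 1 and chip 2 arrays of WT1. Without WT1 and TG3, 11 of the 12 were called higher, against 16.3% of all genes, with a median of 0.28. Summed signals were 13050 to 19537 on TG arrays and 14973 to 18925 on WT arrays.

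Pericyte and smooth muscle markers had 2 rises among 10 tested, Notch3 at 0.54 ± 0.07 (adjusted p = 0.00189) and Smtn at 0.37 ± 0.11, with Acta2 at 0.47 ± 0.17 and Kcnj8 at 0.27 ± 0.11 not past the threshold. Their median was 0.16, and 0.24 without WT1 and TG3. The part of vessel cells in the differences of Col4a1, Col4a2 and Col15a1 was not tested.

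Beyond the 35 genes, laminins and other basement membrane genes gave 3 rises and 0 falls among 10 tested, with a median of 0.22. Smoc1, a calcium-binding basement membrane protein, rose by 0.46 ± 0.09 (adjusted p = 0.0107), Agrn, the agrin of the neuromuscular junction, by 0.25 ± 0.07 and Col4a5, another type IV chain, by 0.33 ± 0.09. Nid2, the other nidogen, differed by 0.40 ± 0.14 (adjusted p = 0.064). The same count of 3 was found without WT1 and TG3.

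Among 18 enzymes and helpers of collagen folding and processing, 3 rose and 1 fell, with a median of 0.22. Tgm2, the transglutaminase that cross-links matrix proteins, rose by 1.00 ± 0.11 (adjusted p = 0.000844). Plod2, the lysyl hydroxylase of collagen telopeptides, rose by 0.71 ± 0.09 (adjusted p = 0.0012), though its probe was detected on 6 of 6 TG arrays and only 2 of 6 WT arrays, so its WT level is mostly at background. Sparcl1 rose by 0.43 ± 0.12. P4ha2, a subunit of collagen prolyl hydroxylase, fell by 0.32 on the log2 scale (adjusted p = 0.0489). Tgm2 was also called on each chip alone.

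Of 16 genes of TGF-beta signalling, the pathway best known for driving matrix synthesis, 3 rose and 3 fell. Ltbp1, which stores latent TGF-beta in the matrix, rose by 0.72 ± 0.10 (adjusted p = 0.00179), and Eng by the value given above. Ltbp3, another latent TGF-beta binding protein, fell by 0.37 (adjusted p = 0.0107) and Tgfbr3, betaglycan, by 0.31 (adjusted p = 0.0219) on the log2 scale. The median of the list was 0.12.

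Cell receptors for the matrix gave 5 rises and 1 fall among 16 tested. Itga7, the laminin-binding integrin chain of muscle fibres, rose by 0.85 ± 0.15 (adjusted p = 0.00676), Itga9 by 0.56 ± 0.10 and Pdgfb, a ligand for pericyte receptors kept in this list, by 0.47 ± 0.09. Itgb5 fell by 0.55 on the log2 scale (adjusted p = 0.00752). The median was 0.16.

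Other matrix proteases and inhibitors gave 2 rises and 1 fall among 11 tested, with a median of 0.24. Htra1, a secreted serine protease that cleaves matrix proteins, fell by 0.92 on the log2 scale (adjusted p = 0.00168), while Mmp11 rose by 0.34 ± 0.09 and Adamtsl4 by 0.24 ± 0.07. Plau, urokinase, differed by 0.42 ± 0.13 (adjusted p = 0.0511). Of 24 further collagens and matrix proteins, 2 rose and 1 fell, with a median of 0.19. Col7a1, the anchoring fibril collagen, fell by 1.31 on the log2 scale (adjusted p = 0.000139), the opposite direction to the basement membrane collagens above, and it was called on each chip alone. Dpt and Col23a1 (0.26 ± 0.07, detected on 6 of 6 TG arrays and 4 of 6 WT arrays) rose, and Emilin1 differed by -0.39 ± 0.13 (adjusted p = 0.0552).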

How the data were processed

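Muscle RNA of 6 TG and 6 WT mice, pooled by 2, was measured on 12 Illumina mouse arrays, and the 2 arrays of a pool were averaged, so n = 3 pools per genotype. The deposited intensity values are called non-normalized per the file headers, but they had been background-subtracted and scaled (mean of 472.135 on every array, 29.3 to 32.8% below 0). The deposited detection p-value column holds 1 minus the detection p. The authors' processed log2 table was rebuilt within 0.00109 as log2 of signals floored at 1, minus each array's 75th percentile and each probe's median, and its column medians ran from -0.251 to 0.0935; it served as an alternative.

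Since the signals were already corrected, neqc was not applicable, and normexp (offset 50), quantile normalisation and log2 were applied. limma 3.58.1 in R 4.3.3 (lmFit, eBayes, two-sided) compared the pools over 15708 probes, those with a detection p under 0.05 in every TG array or in every WT array, with Benjamini-Hochberg adjustment and a threshold of 0.05. Signals printed are deposited values, and differences are TG minus WT on the normalised log2 scale. A gene is its tested probe of highest mean. GEO's platform annotation gave 34885 probes 1 symbol, 18 several and 10378 none. The fit was tested on simulated data. Nothing says how pools were drawn beyond the labels. The p-values set the difference between genotypes against the spread between these pools, and the number of pools, 3 per genotype, limits the precision.

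The members and lists were chosen with earlier results of these data known. Every member is accounted for; members that passed are given by pool, and the 4 genes of smallest p are named in each other list. Pools of the same number did not deviate together (correlations of -0.417, 0.342 and -0.119), so the main comparison is unpaired. Alternatives were other background corrections, scalings, detection filters, single chips, blocks and left-out pools. Promoter sequences are from RefSeq (GRCm38.p6).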

Additional observations from a re-analysis of the deposited data

Results flagged for a closer look

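For each of the 35 genes, the array farthest from the rest was looked for within the 6 TG and the 6 WT arrays by Dixon's gap over range, and 10 of 70 groups passed. Chance flags about 1 in 20 groups, and the 2 arrays of a pool are not independent. In 8 of the 10 the chip 2 array of WT1 was far above the other 5 WT arrays. On the normalised log2 scale it read 11.11 for Timp1 against 6.50 to 7.19 on the others, 10.51 for Col5a1 against 8.72 to 9.29, and 10.33 for Lox against 8.42 to 9.11. It read 8.58 for Col8a1, 8.02 for Fn1, 8.66 for Tnc, 9.47 for Thbs2 and 9.74 for Mmp14, where the highest of the others were 7.67, 7.54, 7.22, 8.61 and 9.11. The 2 other cases were Fmod, at 10.27 on the chip 1 array of TG3 against 9.25 to 9.63 on the other TG arrays, and Pdgfra, at 9.44 on the chip 1 array of WT2 against 9.83 to 9.94 on the other WT arrays.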

How the results depend on the processing

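Over 20 alternatives, 601 of 697 gene differences kept their direction and side of the threshold, 46 changed sign without a call in either, 29 gained a call, 20 lost one and 1 reversed with a call: Col1a2 was -0.27 (adjusted p = 0.0412) with WT1 and TG3 left out. The 6 matrix genes called became 14 on chip 1 alone, 1 on chip 2 alone, 10 with WT1 from chip 1 only, 12 with TG3 also left out, and 14 (13 higher, 1 lower) with WT1 and TG3 both left out; the last 3 were chosen after seeing the data. Leaving out 1 pool gave 2 to 7 matrix genes (2 without WT1, 2 without WT2 and 3 without WT3) and 2060 to 4216 probes (2586 without WT1, 2060 without WT2 and 2581 without WT3), against 4059 in all; a lone chip 2 gave 1454. The cause was not tested. With pool number as a replicate block there were 3103 probes and 6 matrix genes (Nid1 lost, Lum gained), and with chip as a replicate block 4904 and 7. The share of calls that were higher was 43.6%, 33.5% with 75th percentile scaling and 51.1% with cyclic loess, with all-gene medians of -0.02, -0.05 and 0.01. neqc was not run. Signal over background limits Postn and Thbs1, which had no detected probe.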

Other observations

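Satellite cell and regeneration markers gave 2 rises and 0 falls among 6 tested, with a median of 0.61 (log2). Megf10, a receptor of satellite cells, rose by 0.43 ± 0.09 (limma adjusted p = 0.0118) and Vcam1, an adhesion molecule of satellite and endothelial cells, by 0.72 ± 0.16 (adjusted p = 0.0168). Myog, the transcription factor myogenin of differentiating myoblasts, differed by 0.62 (adjusted p = 0.0732) and Cdh15, M-cadherin, by -0.29 (adjusted p = 0.066). With WT1 and TG3 left out, 4 were called higher and 1 lower, against 16.3% and 16.6% of all genes.

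Skeletal muscle fibre markers moved both ways, with 2 rises and 2 falls among 15 tested. Myh1, the type IIx myosin heavy chain, rose by 0.36 ± 0.07 and Pvalb, parvalbumin of fast fibres, by 0.24 ± 0.07, while Ryr1, the calcium release channel, fell by 0.61 and Myh4, the type IIb myosin heavy chain, fell by 0.22 on the log2 scale (limma adjusted p of 0.0101, 0.0429, 0.0013 and 0.0359 for Myh1, Pvalb, Ryr1 and Myh4).

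No marker passed in the tenocyte (7 tested, median 0.14), Schwann cell (6 tested, 0.07), adipocyte (3 tested, 0.42) and blood (2 tested, 0.18) lists. Without WT1 and TG3, 2 of the 7 tenocyte markers were called lower, against 16.6% of all genes, with a median of -0.14. No Schwann cell, adipocyte or blood marker was called there. Scx differed by -0.25, Cilp2 by 0.20, Chad by 0.32 and Kera by -0.16. Cnp differed by 0.23, Mbp by -0.46, Egr2 by 0.26 and Pmp22 by 0.14. Cidec and Adipoq each differed by 0.42 and Lipe by 0.03. Hba-a1 differed by 0.25 and Alas2 by 0.11. Myh8, given in the report beside the labels, was chosen after its values were seen.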
